A study of Mus musculus with 3 samples.

Results

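The regions described here were the ChIP-seq peaks of mouse chromosome 5 in NE4C cells, an established line of mouse neural stem cells. All peaks of chromosome 5 in the 3 deposited lists were taken (build mm9), apart from those starting between 14 and 16 Mb, and they numbered 4775 of 34026 peaks in all. The chromosome was chosen by its number of peaks, so peak number is described here and was not tested. Chromatin was precipitated with an antibody to homocysteinylated lysine 79 of histone H3 (H3K79Hcy), an antibody to homocysteinylated lysine in general (KHcy, labelled Hcy) or an antibody to trimethylated lysine 4 of histone H3 (H3K4me3), with 1 library for each. The study asked where homocysteinylated histones lie in neural cells, and used H3K4me3 as its positive control. All 3 groups were cultures of the same cells under the same labels, with no added treatment named, and differed in antibody only. With 1 library per antibody there was no replicate, so no difference was tested, and the 95% intervals given below (Wilson for shares, exact Poisson for peaks per Mb, order statistics for medians) cover counting error only.

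H3K4me3 is a mark of gene starts, above all of starts in CpG-rich sequence, where it is laid down by the SET1 and MLL methyltransferases. Homocysteinylation is a different kind of change: homocysteine thiolactone, a reactive product of homocysteine, attaches itself to the side chain of lysine. High maternal homocysteine is known as a risk factor for neural tube defects, and chromosome 5 carries several of the genes that pattern the neural tube, among them Shh, Msx1 and Gsx2.

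The H3K79Hcy list held 678 peaks on chromosome 5 of 7387 in all, the KHcy list 644 of 7300, and the H3K4me3 list 3453 of 19339. These were 9.18%, 8.82% and 17.9% of the lists. The stretch left out held 82, 65 and 75 further peaks. Among 20 chromosomes, chromosome 5 ranked first by the number of H3K4me3 peaks and 4th by the number of both homocysteine lists. Per Mb of sequence it held 23.7 H3K4me3 peaks, against 15.9 on the next densest, chromosome 19, while its 4.65 H3K79Hcy peaks per Mb lay below the 7.85 of chromosome 6 and the 6.97 of chromosome 1. The reads inside the peaks of chromosome 5 numbered 16162, 21619 and 169137, or 7.72%, 7.81% and 21.5% of all reads in peaks. The fold of a peak is given below as its reads over the background of its library, which the scores of the narrowest peaks placed at 1.59 (H3K79Hcy), 1.49 (KHcy) and 1.38 (H3K4me3) reads per 200 bp.

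The sequences under 7 of these regions are printed as examples. They do not compare the lists, since the first 3 lay wholly in peaks of all 3 lists. They were read from build NCBIM37 (mm9) in the 5′ to 3′ direction, on the plus strand for peaks and on the strand of the gene for the bases upstream of a gene start, with every CpG in capitals. The first 3 are the centre or the whole of the top peak by fold of H3K79Hcy (chr5:33076651-33076950, between genes, 2.15 kb from Pisd), KHcy (chr5:147072551-147072850, in an intron of Cdk8) and H3K4me3 (chr5:17403601-17403800, between genes, 8.92 kb from Cd36). The next 3 are the 300 bases before the starts of Gm454 (chr5:138648537-138648836, minus strand), Msx1 (chr5:38215823-38216122, minus strand) and Tbx3 (chr5:120120378-120120677, plus strand). The Gm454 window lay in KHcy and H3K4me3 peaks, with 264 of its bases in an H3K79Hcy peak. The Msx1 window lay in KHcy and H3K4me3 peaks, and the Tbx3 window in an H3K4me3 peak alone. The last is the centre of the widest H3K4me3 peak, in an intron of Tmem132c (chr5:127923451-127923750).
H3K79Hcy near Pisd: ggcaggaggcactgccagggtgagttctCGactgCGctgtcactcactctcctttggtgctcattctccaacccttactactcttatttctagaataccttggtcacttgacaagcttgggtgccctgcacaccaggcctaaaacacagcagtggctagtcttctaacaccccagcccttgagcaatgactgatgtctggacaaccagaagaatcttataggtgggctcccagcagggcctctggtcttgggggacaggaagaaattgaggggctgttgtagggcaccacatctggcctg
KHcy in Cdk8: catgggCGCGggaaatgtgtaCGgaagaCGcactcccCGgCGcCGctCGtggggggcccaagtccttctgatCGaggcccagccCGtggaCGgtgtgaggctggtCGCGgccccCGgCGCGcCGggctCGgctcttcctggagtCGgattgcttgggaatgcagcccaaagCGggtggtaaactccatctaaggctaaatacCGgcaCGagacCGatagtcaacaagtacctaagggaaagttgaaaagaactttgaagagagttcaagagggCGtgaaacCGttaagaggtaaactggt
H3K4me3 near Cd36: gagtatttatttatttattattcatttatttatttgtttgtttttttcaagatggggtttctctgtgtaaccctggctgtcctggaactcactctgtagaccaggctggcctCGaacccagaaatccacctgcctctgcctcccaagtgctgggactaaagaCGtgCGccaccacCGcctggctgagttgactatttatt
Upstream of Gm454: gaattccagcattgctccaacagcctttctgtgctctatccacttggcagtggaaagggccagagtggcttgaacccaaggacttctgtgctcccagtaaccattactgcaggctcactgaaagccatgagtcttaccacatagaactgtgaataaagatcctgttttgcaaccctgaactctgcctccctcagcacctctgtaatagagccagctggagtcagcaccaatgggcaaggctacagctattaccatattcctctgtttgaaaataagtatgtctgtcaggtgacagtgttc
Upstream of Msx1: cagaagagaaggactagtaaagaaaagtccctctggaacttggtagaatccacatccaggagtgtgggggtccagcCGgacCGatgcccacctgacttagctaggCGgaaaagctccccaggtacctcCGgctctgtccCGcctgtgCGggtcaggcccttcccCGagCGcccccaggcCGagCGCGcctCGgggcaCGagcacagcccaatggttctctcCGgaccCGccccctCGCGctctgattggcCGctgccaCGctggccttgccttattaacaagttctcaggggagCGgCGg
Upstream of Tbx3: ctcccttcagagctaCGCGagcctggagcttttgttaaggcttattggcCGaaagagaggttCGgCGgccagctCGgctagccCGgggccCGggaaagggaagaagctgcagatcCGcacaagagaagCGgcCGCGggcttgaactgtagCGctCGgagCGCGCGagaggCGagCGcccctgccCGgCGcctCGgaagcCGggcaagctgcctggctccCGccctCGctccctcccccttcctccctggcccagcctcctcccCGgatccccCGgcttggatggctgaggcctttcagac
H3K4me3 in Tmem132c: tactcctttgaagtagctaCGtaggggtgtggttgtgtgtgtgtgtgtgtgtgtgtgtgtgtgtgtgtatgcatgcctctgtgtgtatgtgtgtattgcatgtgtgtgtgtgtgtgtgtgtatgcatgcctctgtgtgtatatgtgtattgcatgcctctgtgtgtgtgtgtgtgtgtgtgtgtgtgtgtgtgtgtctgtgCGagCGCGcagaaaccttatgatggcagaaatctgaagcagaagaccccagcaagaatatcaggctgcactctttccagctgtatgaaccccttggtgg

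The windows before Msx1 and Tbx3 were rich in CpG, with 21 and 27 in 300 bases and a G+C of 64.0% and 68.3%. The window before Gm454 held 0, although its start was the only one of chromosome 5 inside peaks of all 3 lists. The Cdk8 window held 25 CpG, and the H3K79Hcy window near Pisd held 2. The Tmem132c window consisted largely of runs of alternating G and T, and 24.8% of its 31-base words occurred again on chromosome 5. For the narrow peak near Cd36 that share was 50.6%, for the Cdk8 and Pisd windows 0%. How reads that match several places were treated was not given in the sources used here.

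In steps of 5 Mb, H3K4me3 peaks were crowded into the far part of the chromosome and those of the homocysteine lists were not. The 31 steps held from 2 to 697 H3K4me3 peaks, with a median of 54, against 4 to 46 H3K79Hcy peaks (median 19) and 6 to 53 KHcy peaks (median 17). The 5 densest steps of each list held 57.5% of its H3K4me3 peaks (95% interval 55.8 to 59.1), 30.1% of its H3K79Hcy peaks (26.8 to 33.7) and 31.4% of its KHcy peaks (27.9 to 35.1). Before 100 Mb there were 7.43 H3K4me3, 3.61 KHcy and 4.40 H3K79Hcy peaks per Mb, and beyond it 53.1, 5.87 and 5.10.

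**Figure D1:**
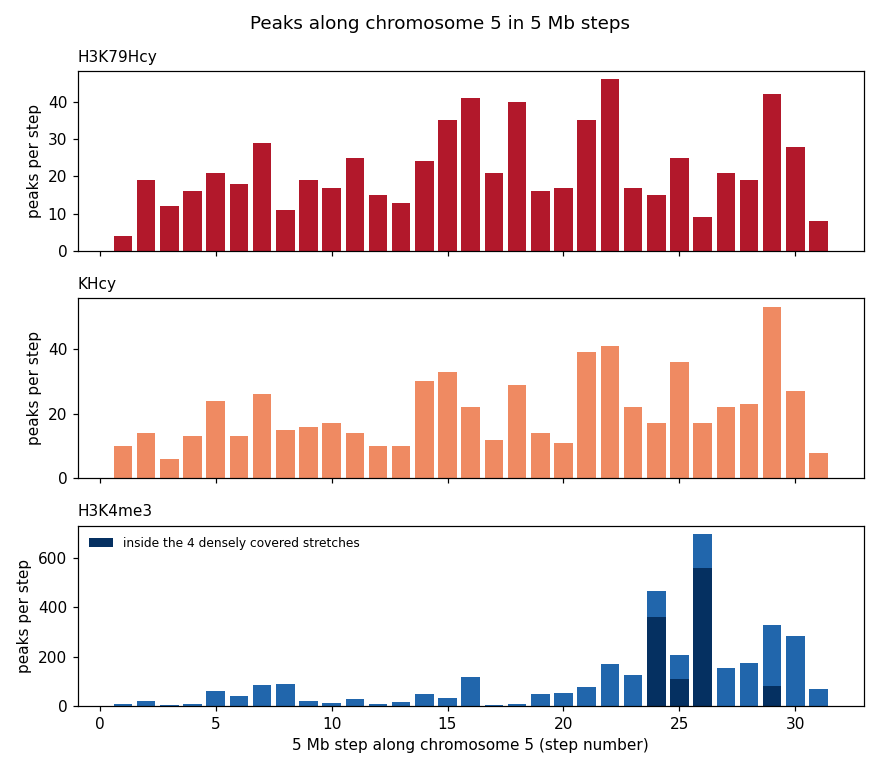
Number of peaks (vertical axis) in each 5 Mb step of chromosome 5 (horizontal axis, step number) for the 3 lists, 1 library each. Step 31 is shorter than the others, and steps 3 and 4 lack the stretch left out. H3K4me3 peaks pile up in steps 24 and 26 with 467 and 697, most of them in the dark part of the bars (inside densely covered stretches), where H3K79Hcy has 15 and 9.

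The densest H3K4me3 steps were step 26 (125 to 130 Mb), with 697 peaks over 46.5% of its bases, and step 24 (115 to 120 Mb), with 467 peaks over 28.4%. In step 26 there were 9 H3K79Hcy peaks and 17 KHcy peaks, so that H3K4me3 peaks outnumbered H3K79Hcy peaks 77.4 to 1, the highest ratio of the chromosome. The lowest was 0.095 to 1, in step 17 (80 to 85 Mb), with 2 H3K4me3 and 21 H3K79Hcy peaks and 3 starts of protein-coding genes. Step 3 (10 to 15 Mb), the next emptiest of H3K4me3, held 3 peaks beside 12 of H3K79Hcy.

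The homocysteine lists shared their densest steps with each other. Step 22 (105 to 110 Mb) held 46 H3K79Hcy and 41 KHcy peaks, and step 29 (140 to 145 Mb) held 42 and 53. By number H3K79Hcy had fewest peaks in step 1 (4) and step 31 (8), and KHcy in step 3 (6) and step 31 (8), steps with less usable sequence than most. Per Mb of usable sequence H3K79Hcy was sparsest in step 26 (1.84), where H3K4me3 was densest, and in step 1 (2), and KHcy in step 3 (1.5) and in steps 12 and 13 (2 each). In the densest 1 Mb of both lists, from 141 to 142 Mb, there were 29 H3K79Hcy, 32 KHcy and 139 H3K4me3 peaks. The next densest 1 Mb of H3K79Hcy, from 103 to 104 Mb, held 17 of its peaks and 8 of H3K4me3. Conversely, the densest 1 Mb of H3K4me3, from 127 to 128 Mb, held 205 of its peaks and 0 of either homocysteine list.

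H3K4me3 peaks were denser in steps of higher G+C, and H3K79Hcy peaks hardly so. Over the 31 steps, which all come from the same 3 libraries, Spearman's rho of peaks per Mb with G+C was 0.91 for H3K4me3, 0.48 for KHcy and 0.11 for H3K79Hcy. Without the 4 steps that hold a densely covered stretch (defined below), the values over 27 steps were 0.91, 0.44 and 0.18. H3K79Hcy and KHcy densities correlated at 0.67, H3K79Hcy and H3K4me3 at 0.17. In the 8 steps of lowest G+C (36.6 to 39.2%) there were 1.87 H3K4me3 peaks per Mb, against 34.3 in the 4 steps of highest G+C without a stretch (45.6 to 48.3%). The same steps held 4.03 and 3.81 H3K79Hcy peaks per Mb, and 2.92 and 4.42 KHcy peaks per Mb. Chromosome 5 as a whole had a G+C of 42.5%, 6th among the 20 chromosomes.

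**Figure D2:**
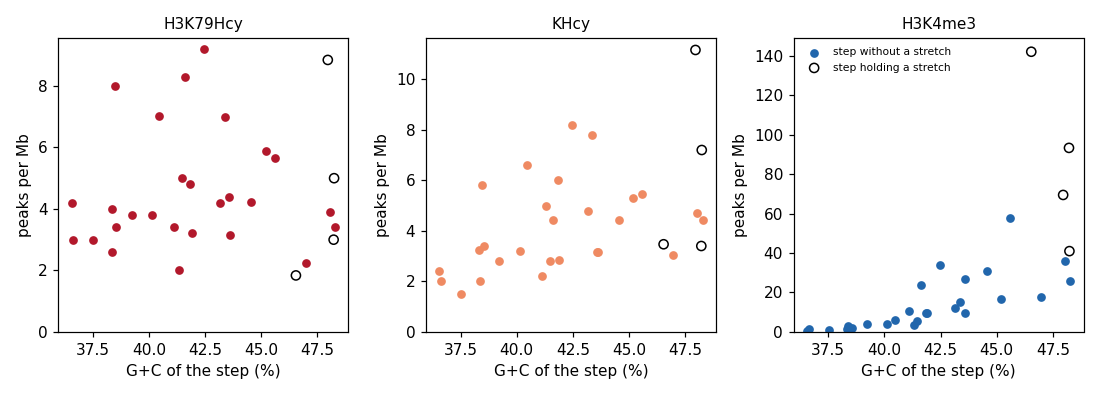
Peaks per Mb (vertical axis) against the G+C content in percent (horizontal axis) of the 31 steps of chromosome 5, with open circles for the 4 steps that hold a densely covered stretch. H3K4me3 is denser at higher G+C (Spearman's rho 0.91), while H3K79Hcy is spread over all values of G+C (0.11).

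Within the far part of the chromosome, H3K4me3 peaks covered most of the bases of 4 stretches. After the data were seen, a densely covered stretch was defined as a run of 100 kb bins of at least 300 kb in which H3K4me3 peaks cover at least 40% of each bin (with a gap of 1 bin allowed). Chromosome 5 held 4 of the 9 such stretches of the genome, 5.5 Mb in sum, and 3 other chromosomes held the other 5, over 4 Mb. The values of H3K4me3 in them follow from how they were chosen, and those of the homocysteine lists do not.

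The first stretch (chr5:116600001-117500000) held 191 H3K4me3 peaks over 67.8% of its bases, and the 1 Mb on either side was covered by 8.30% and 8.50%. It holds the start of Srrm4, a splicing regulator of neural cells, beside those of the small heat shock gene Hspb8 and of Ccdc60. The second (chr5:119200001-120500000) held 278 peaks over 76.1%, with 5.20% and 10.4% beside it, and its 2 gene starts are those of the T-box factors Tbx3 and Tbx5. The third and longest (chr5:126000001-128900000) held 561 peaks over 69.0%, with 5.28% and 21.3% beside it, and holds Tmem132b, Tmem132c and most of Tmem132d, genes of a family of membrane proteins. The fourth (chr5:141300001-141700000) held 80 peaks over 67.9%, with 12.2% and 21.6% beside it, at Gna12, a G protein subunit.

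The homocysteine lists did not follow H3K4me3 into the first 3 stretches, and both were dense in the fourth. H3K79Hcy had 5, 3 and 4 peaks in the first 3 stretches and 19 in the fourth, which is 5.56, 2.31, 1.38 and 47.5 per Mb. The interval in the fourth was 28.6 to 74.2 per Mb, against 4.61 (4.26 to 4.98) outside all stretches. KHcy had 2, 5, 8 and 22 peaks, and 55.0 per Mb in the fourth (34.5 to 83.3) against 4.33 (3.99 to 4.69) outside. Over all 4 stretches H3K4me3 had 202 peaks per Mb against 16.7 outside, a ratio of 12.1, where H3K79Hcy had 5.64 against 4.61 and KHcy 6.74 against 4.33. The stretches had a G+C of 45.8%, and the rest of the chromosome 42.4%. Whether the number of copies of these stretches, or the input of the same cells, moves with the H3K4me3 values was not tested.

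**Figure D3:**
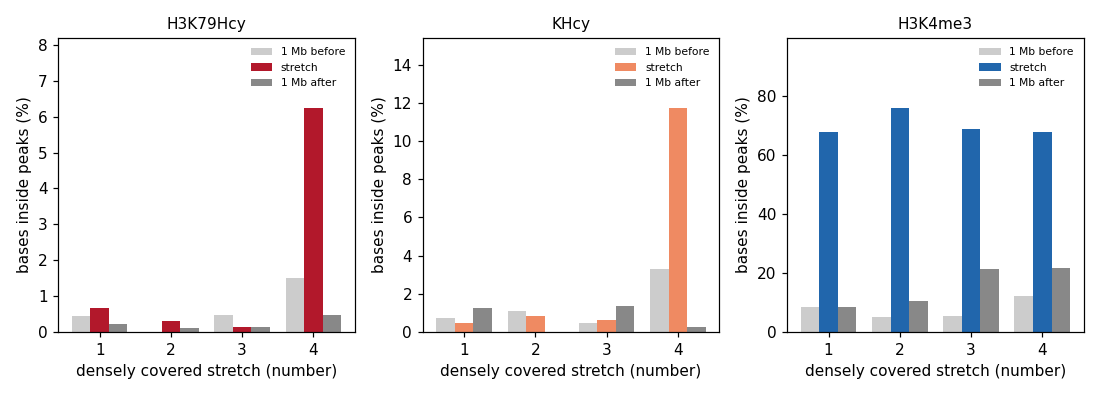
Share of bases inside peaks in percent (vertical axis, a different scale in each panel) in the 4 densely covered stretches of chromosome 5 (horizontal axis, coloured bars) and in the 1 Mb before and after each (grey bars). H3K4me3 covers 67.8 to 76.1% of every stretch, while H3K79Hcy and KHcy cover 6.25% and 11.8% of stretch 4 and under 1% of each of the others.

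The 4 stretches held 1110 of the 3453 H3K4me3 peaks (32.1%) and 47.9% of the H3K4me3 reads in peaks of the chromosome, in 3.77% of its sequence. The 2343 H3K4me3 peaks outside them outnumbered those outside stretches on each other chromosome. As the chromosome was chosen for its peak number, this rank is a description only. With the stretches left out everywhere, the share of the H3K4me3 list on chromosome 5 went from 17.9% to 13.4%. At these settings H3K79Hcy and KHcy ranked 4th and 5th among the chromosomes.

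The stretches were chosen by their H3K4me3 coverage, so wider and closer H3K4me3 peaks in them follow from that choice. As a description, H3K4me3 peaks were wider and fuller in the stretches than elsewhere on the chromosome. Their median width was 2800 bp in the stretches (2600 to 2800) and 1800 bp outside (1800 to 1800), with 4.20 and 3.57 reads per 200 bp. In the stretches 17.8% were wider than 5000 bp, against 1.62% outside. The median gap between neighbouring H3K4me3 peaks was 0.6 kb in the stretches, 11.3 kb elsewhere and 3.6 kb over the chromosome, so that neighbouring peaks in the stretches nearly touched. Over the chromosome 47.6% of its gaps were within 3000 bp, against 4.87% for H3K79Hcy and 5.44% for KHcy, whose median gaps were 115 and 109 kb.

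The widest peak of chromosome 5 was an H3K4me3 peak of 30400 bp and 654 reads in an intron of Tmem132c (chr5:127908401-127938800), whose centre is printed above. The next were 23000 bp at 48.5 kb from the cytochrome P450 gene Cyp3a41b (chr5:146382601-146405600) and 18800 bp in an intron of Tmem132d (chr5:128306001-128324800). Peaks of the homocysteine lists were far shorter: the widest were 3800 bp (H3K79Hcy, chr5:26334201-26338000, 91 reads) and 5800 bp (KHcy, chr5:26332401-26338200, 137 reads), at the same place near Gm1979, under an H3K4me3 peak of 148 reads. The second widest of H3K79Hcy, 2800 bp near 5031410I06Rik, also lay under peaks of both other lists, and the third, 2400 bp and 313 kb from Zfp804b, under neither. The second of KHcy was 4600 bp at 10.5 kb from Cyp3a44, and the third 4000 bp near 4930420K17Rik.

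H3K79Hcy peaks had a median width of 1000 bp (1000 to 1200) and KHcy peaks of 2000 bp (2000 to 2000), with 4.20 (4.17 to 4.33) and 3.30 (3.25 to 3.33) reads per 200 bp. On the other chromosomes the medians were 1200 bp and 4.29 reads for H3K79Hcy, and 2000 bp and 3.35 reads for KHcy. The H3K4me3 peaks of chromosome 5 had 2000 bp and 3.82 reads (3.78 to 3.83), those of the other chromosomes 1800 bp and 3.56 (3.54 to 3.56). The folds were modest in all lists. Their medians were 2.64, 2.22 and 2.77 on chromosome 5, and 7, 2 and 14 peaks were over 5-fold.

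The top 3 peaks by fold of each list lay at only 5 places, all between genes or in introns. At the Cdk8 intron (chr5:147072401-147073000), in the gene of a kinase of the Mediator complex, H3K79Hcy had 26 reads (5.44-fold), KHcy 34 (7.63-fold) and H3K4me3 50 (12.1-fold), over the same 600 bp. At 2.15 kb from Pisd, which makes phosphatidylethanolamine, H3K79Hcy had 27 reads (8.48-fold), KHcy 33 (5.55-fold) and H3K4me3 59 (6.10-fold). At 8.92 kb from Cd36, the gene of a fatty acid receptor, H3K79Hcy had 12 reads (7.54-fold) and H3K4me3 22 (15.9-fold) in 200 bp, and KHcy 22 in a wider peak (2.47-fold). The other 2 places were 8.12 kb from Speer4f (KHcy, 24 reads, 4.04-fold) and an intron of Pisd (H3K4me3, 45 reads, 8.15-fold). The first of them was again a peak of all 3 lists, and the second one of H3K79Hcy as well, with 19 reads.

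Away from these places most homocysteine peaks stood alone. Of the 678 H3K79Hcy peaks, 58 overlapped a KHcy peak by at least 1 bp (8.56%, 6.68 to 10.9), 109 an H3K4me3 peak (16.1%), 31 both (4.57%) and 542 neither (79.9%). On the other chromosomes 13.7% of H3K79Hcy peaks overlapped KHcy and 14.4% H3K4me3. With the peaks of 14 to 16 Mb kept, the shares on chromosome 5 were 15.8% and 24.6%. Whether the share at KHcy lay below or above that of the other chromosomes thus depended on the stretch left out. Of the 644 KHcy peaks, 56 overlapped H3K79Hcy (8.70%) and 134 H3K4me3 (20.8%). From the other side, 103 H3K4me3 peaks overlapped H3K79Hcy (2.98%, against 5.29% on the other chromosomes) and 149 overlapped KHcy (4.32%). With the peaks of 14 to 16 Mb kept, these shares on chromosome 5 were 4.73% and 5.67%.

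The stretches weigh on these shares. In them 29 of 31 H3K79Hcy peaks and 36 of 37 KHcy peaks met an H3K4me3 peak, where H3K4me3 peaks covered 67.8 to 76.1% of the bases. Outside them the share of H3K79Hcy peaks at H3K4me3 was 12.4% (10.1 to 15.1), against 13.9% outside stretches on the other chromosomes, and that of KHcy 16.1% against 15.0%. H3K4me3 peaks covered 3.48% of the chromosome outside the stretches and 6% of it in all, KHcy peaks 0.895% and H3K79Hcy peaks 0.528%.

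The lists also differed in base composition. The median G+C was 41.6% (41.0 to 42.3) under H3K79Hcy peaks, 42.3% (41.7 to 42.9) under KHcy peaks and 45.6% (45.5 to 45.8) under H3K4me3 peaks, beside 42.5% for the chromosome. Median CpG per kb was 6.25, 7.40 and 9.58, beside 9.15. CpG-rich peaks, with over 30 CpG per kb, numbered 9 of H3K79Hcy (1.33%), 30 of KHcy (4.66%) and 199 of H3K4me3 (5.76%). Of those of H3K4me3, 195 lay outside the stretches, where they made up 8.32%, against 0.360% inside.

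Most peaks of all lists were centred between genes or in introns. Between protein-coding genes lay 55.6% of H3K79Hcy, 45.2% of KHcy and 58.3% of H3K4me3 peaks, beside 55.1% of all 200 bp windows of the chromosome, and in introns 39.7%, 45.2% and 34.9%, beside 39.2%. Exons held 6.37% of KHcy peaks (4.73 to 8.52), beside 3.32% of windows, and 2.95% of H3K79Hcy peaks. In the 2000 bp before a gene start, called the promoter here, lay 1.03% of H3K79Hcy peaks (0.501 to 2.12), 2.17% of KHcy peaks (1.30 to 3.62) and 3.79% of H3K4me3 peaks (3.21 to 4.48), beside 1.74% of windows. Outside the stretches the H3K4me3 share was 5.46%, and in them 3 of 1110 peaks (0.270%).

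Gene starts were most often marked by H3K4me3 and seldom by H3K79Hcy. Of 1298 protein-coding genes of chromosome 5, 132 had their start under a peak of H3K4me3 (10.2%, 8.64 to 11.9), 28 under one of KHcy (2.16%) and 7 under one of H3K79Hcy (0.539%, 0.262 to 1.11). Over all chromosomes the shares were 5.39%, 0.966% and 0.376% of 22356 genes, and chromosome 5, chosen for its peak number, is part of them. Within 1000 bp of a peak lay 342 starts for H3K4me3 (26.3%), 38 for KHcy (2.93%) and 9 for H3K79Hcy (0.693%).

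Around the 1283 gene starts outside the stretches, H3K4me3 peaks stood on both sides of the start more often than on it. They covered 17.5% of the positions at 0.8 kb downstream, 11.3% at 0.8 kb upstream and 9.74% at the start itself, and 3.43% at 5 kb downstream and 5.69% at 5 kb upstream. KHcy peaks reached 2.26% at 0.2 kb downstream, and 0.623% and 1.01% at 5 kb on either side. H3K79Hcy peaks lay between 0% and 0.857% at every distance, with 0.546% at the start.

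**Figure D4:**
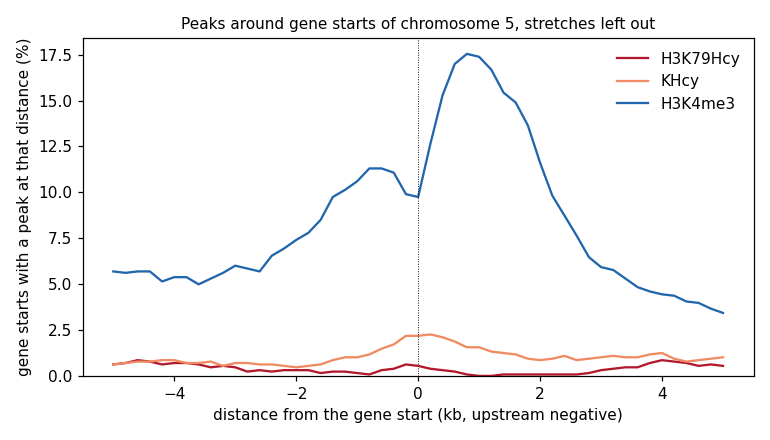
Share of the 1283 protein-coding gene starts of chromosome 5 outside the stretches that have a peak (vertical axis, percent) at each distance from the start (horizontal axis, kb, from 5 kb upstream to 5 kb downstream, each gene read in its own direction). H3K4me3 has a peak on each side of the start, 17.5% at 0.8 kb downstream and 11.3% at 0.8 kb upstream, KHcy a low rise at the start, and H3K79Hcy has at most 0.857% at any distance.

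CpG-rich starts carried most of the H3K4me3. Of 565 starts with at least 60 CpG in the 1 kb around them, 74 lay inside an H3K4me3 peak (13.1%, 10.6 to 16.1) and 226 within 1 kb of a peak (40%). Of 171 starts with fewer than 10 CpG these were 9 (5.26%) and 17 (9.94%). KHcy peaks held 17 of the CpG-rich starts (3.01%) and 6 of the CpG-poor ones (3.51%). For H3K79Hcy the counts were 0 of 565, which allows a share of up to 0.531% (3 counts of the total, in place of the Wilson limit), and 3 of 171 (1.75%).

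The 7 genes that start inside an H3K79Hcy peak are known for different functions. They were Speer4b, of a family expressed in the testis (21 reads, 3.30-fold), the immune adaptor Clnk (19 reads, 2.98-fold), the phosphate transporter Slc34a2 (26 reads, 2.33-fold), the tooth enamel gene Enam (22 reads, 2.76-fold), the mitochondrial translation factor Mtif3 (20 reads, 3.14-fold), Gm17304 (19 reads) and Gm454 (22 reads). Only the start of Gm454 (chr5:138644837-138648536, minus strand) lay in peaks of all lists, with 22 H3K79Hcy, 47 KHcy and 278 H3K4me3 reads and folds of 2.76, 3.16 and 4.03.

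A further 6 starts lay in a KHcy and an H3K4me3 peak. Msx1, a homeobox gene of the dorsal neural tube (chr5:38211724-38215822, minus strand), had 27 KHcy reads (2.27-fold) and 95 H3K4me3 reads (2.75-fold) there. Pdgfra, the receptor of platelet-derived growth factor, had 49 (2.75-fold) and 78 (3.14-fold), and Lfng, a glycosyltransferase that tunes Notch, 36 (3.03-fold) and 42 (3.38-fold). The others were Nop14, of ribosome assembly (24 and 26 reads), the small GTPase Rab28 (27 and 28 reads) and BC055004 (60 and 27 reads), which lies beside Gm454.

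Over gene bodies, 190 genes held an H3K79Hcy peak (14.6%, 12.8 to 16.7), 239 a KHcy peak (18.4%, 16.4 to 20.6) and 494 an H3K4me3 peak (38.1%, 35.5 to 40.7). Over all chromosomes the shares were 7.77%, 9.22% and 19.7%, and chromosome 5, chosen for its peak number, is part of them. Genes with a peak were the longer ones in every list, with a median of 71.8 kb against 16.4 kb without for H3K79Hcy, 60.5 against 16.3 kb for KHcy and 33.4 against 15.1 kb for H3K4me3.

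The genes with the most peaks were nearly the same in both homocysteine lists and others in the H3K4me3 list. Gabrb1, a subunit of the GABA-A receptor (chr5:72091171-72529628), held 13 H3K79Hcy peaks of 1.95 to 3.56-fold, 10 KHcy peaks of 2.02 to 3.37-fold and 2 H3K4me3 peaks. Ptpn13, a tyrosine phosphatase (chr5:103854211-104027378), held 13, 12 and 6, and these KHcy peaks covered 15.4% of it. Kcnip4, which binds voltage-gated potassium channels, held 6, 6 and 0, and Magi2, a scaffold of the synapse, 5, 6 and 4. Mad1l1, of the spindle checkpoint, held 5, 4 and 4.

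The genes with the most H3K4me3 peaks held 0 to 5 peaks of each homocysteine list. Tmem132d (chr5:128263861-128938937) held 139 H3K4me3 peaks over 65.2% of its length, 4 H3K79Hcy and 4 KHcy peaks. Tmem132c (chr5:127722178-128046163) held 69 H3K4me3 peaks over 79.4% and 0 of the others. Sdk1, a cell adhesion gene of synapses next to the fourth stretch, held 99, 5 and 1. Caln1, a calcium-binding protein of neurons, held 38, 2 and 5, and Ccdc60 37, 0 and 0.

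Grouped by role, patterning genes were the group most often marked by H3K4me3. Of 24 patterning and homeobox genes, 20 held an H3K4me3 peak in the body (83.3%, against 38.1% of all genes of the chromosome). Of the same 24, 7 held a KHcy peak (29.2%, against 18.4%) and 1 an H3K79Hcy peak (4.17%, against 14.6%). They are short genes, with a median of 8.13 kb, where the genes with an H3K79Hcy peak had a median of 71.8 kb. Of the 24 starts, 10 lay inside an H3K4me3 peak, against 10.2% of all starts of the chromosome. Among these 10 were those of Shh, Mnx1, Msx1, Gsx1, Gsx2, Tbx3, Lhx5, Prdm8 and Lfng. Within 1 kb of an H3K4me3 peak lay 19 of the starts (79.2%, against 26.3%). Shh, the ventral signal of the neural tube, held 3 H3K4me3 peaks over 66.5% of its length with 69 reads at its start, and 0 of the others. The homeobox gene Gsx2 had H3K4me3 at the start (32 reads) with a KHcy peak over 78.9% of the gene (33 reads). Cdx2, of the caudal embryo, had 1 KHcy peak (33 reads) and 2 H3K4me3 peaks (151 reads), and Cux1 3 and 5 peaks. Lfng was the gene with H3K79Hcy, in 1 peak of 20 reads at 4.91 kb from its start. Tbx3 and Tbx5 lie in the second stretch and were covered to 87.2% and 85.1% by H3K4me3, with 0 homocysteine peaks.

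**Figure D5:**
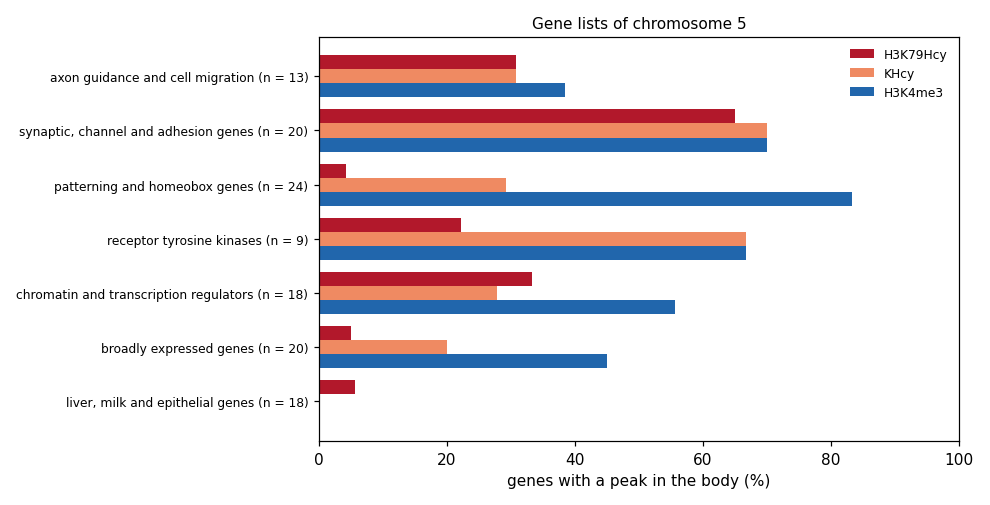
Share of the genes of each list that hold a peak in the body (horizontal axis, percent), with the number of genes of the list on chromosome 5 in parentheses (vertical axis), for H3K79Hcy, KHcy and H3K4me3. H3K4me3 peaks lie in 83.3% of patterning genes and H3K79Hcy peaks in 4.17%, whereas in the longer synaptic genes the 3 lists reach 65 to 70%. Over all genes of the chromosome the shares are 14.6% (H3K79Hcy), 18.4% (KHcy) and 38.1% (H3K4me3).

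The 20 synaptic, channel and adhesion genes outside the stretch left out had a median length of 369.5 kb and held peaks of all lists. Of them 13 held H3K79Hcy (65%, against 14.6% of all genes of the chromosome), 14 KHcy (70%, against 18.4%) and 14 H3K4me3 (70%, against 38.1%). Their peaks numbered 47, 41 and 390. Of the 390, 139 lay in Tmem132d, 99 in Sdk1 and 69 in Tmem132c. The third stretch, chosen by its H3K4me3 coverage, holds Tmem132c and most of Tmem132d. Of the starts of the 20 genes, 0 lay inside an H3K79Hcy or H3K4me3 peak and 1, of the transcription cofactor Ldb2, in a KHcy peak. Another annotated entry of Tmem132b, not counted among the 20, started inside an H3K4me3 peak of 185 reads. Within 1 kb of an H3K4me3 peak lay 5 of the starts (25%), against 26.3% of all genes of the chromosome. Besides those named above, Dpp6, a partner of potassium channels, held 2, 2 and 3 peaks, the adhesion receptor Lphn3 3, 1 and 1, Auts2, a gene of neuronal development, 2, 1 and 11, and Rph3a, of synaptic vesicles, 1, 0 and 6. Gabra4, also a GABA-A receptor subunit, held 0, 1 and 1 peaks, Nos1, the nitric oxide synthase of neurons, 0, 1 and 5, and Tmem132b, in the third stretch, 0, 1 and 11.

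Of 13 genes of axon guidance and cell migration, 4 held H3K79Hcy (30.8%, against 14.6% of all genes of the chromosome), 4 KHcy (30.8%, against 18.4%) and 5 H3K4me3 (38.5%, against 38.1%). The median length of the 13 was 95.3 kb. By list, the genes of the chromosome had medians of 33.4 to 71.8 kb with a peak and 15.1 to 16.4 kb without. The receptor Ephb4 started inside a KHcy peak, with an H3K4me3 peak 0.264 kb from the start. The guidance ligand Slit2 held 1 H3K79Hcy and 1 H3K4me3 peak, Reln, which guides migrating neurons, 1 KHcy and 1 H3K4me3 peak, and Epha5 1 H3K79Hcy and 1 KHcy peak. Of the semaphorins outside the stretch left out, Sema3c held 1 H3K79Hcy peak of 20 reads, and Sema3a and Sema3d 0 peaks of any list.

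Of 9 receptor tyrosine kinases, with a median length of 45.9 kb, 6 held KHcy (66.7%, against 18.4% of all genes), 6 H3K4me3 (66.7%, against 38.1%) and 2 H3K79Hcy (22.2%, against 14.6%). Beside Pdgfra, the starts of Kit, the receptor of stem cell factor, and Kdr, a receptor of vascular endothelial growth factor, lay in H3K4me3 peaks of 26 and 45 reads (2.09 and 2.33-fold), each with 1 KHcy peak in the body. Flt1, of the same receptor family, held 1 H3K79Hcy, 1 KHcy and 3 H3K4me3 peaks.

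Of 18 chromatin and transcription regulators, with a median length of 67.9 kb, 6 held H3K79Hcy (33.3%, against 14.6% of all genes), 5 KHcy (27.8%, against 18.4%) and 10 H3K4me3 (55.6%, against 38.1%). None started inside a peak of any list, and 6 starts (33.3%, against 26.3%) lay within 1 kb of an H3K4me3 peak. Ep400, a chromatin remodeller, held 3, 3 and 1 peaks, Whsc1, an H3K36 methyltransferase, 2, 2 and 0, and Rest, the repressor of neuronal genes, 1, 0 and 1. Gtf2i, a general transcription factor, also held 1, 0 and 1, and Med13l, of the Mediator complex, 0, 1 and 5. The H3K4 methyltransferase Mll3 held only KHcy peaks in its body (4), with an H3K4me3 peak 0.4 kb from its start.

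Of 20 broadly expressed genes, 9 held H3K4me3 (45%, against 38.1% of all genes), 4 KHcy (20%, against 18.4%) and 1 H3K79Hcy (5%, against 14.6%), and 7 starts (35%, against 26.3%) lay within 1 kb of an H3K4me3 peak. The starts of Ywhag, a 14-3-3 protein, and Polr2j, an RNA polymerase II subunit, lay inside one, and those of the ribosomal gene Rpl9 and of Ran, of nuclear transport, in a KHcy peak. The ribosomal gene Rpl5 and Ptpn11, a tyrosine phosphatase, each held 1 KHcy peak beside 1 and 2 of H3K4me3. The nearest H3K4me3 peak was 10.2 kb from the start of Actb, which is strongly transcribed in most cells. Of 18 genes of liver, milk and epithelia, among them Alb, Afp and Csn2, 0 held KHcy or H3K4me3 and 1, Enam, H3K79Hcy.

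The label of the cells could be checked only loosely from these lists. Over the whole genome, 3 of 10 neural stem cell markers found in the annotation had an H3K4me3 peak within 1 kb of the start (Nes, Msi1 and Vim), and 3 of 10 markers of other cells had as well (T, Sox17 and Pou5f1), against 13.5% of all 22356 genes. An H3K4me3 peak does not give the level of a transcript, so these markers neither bear out nor go against the label.

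On both sides of the stretch left out, the nearest peaks were these, not all of them close to its borders. The last H3K79Hcy peak before it (chr5:13938201-13939600) had 26 reads (2.33-fold) and the first after it (chr5:16016001-16016600) 15 (3.14-fold). For KHcy these were 28 reads (2.35-fold, chr5:13611401-13613000) and 29 (2.44-fold, chr5:16004601-16006200). For H3K4me3 they were 47 (2.43-fold, chr5:12720401-12723200) and 31 (5.61-fold, chr5:16973401-16974200), the latter at the place near Speer4f named above. Inside it, the first and last H3K79Hcy peaks had 571 reads over 12000 bp (5.98-fold) and 22 reads (2.30-fold), those of KHcy 35 (1.68-fold) and 25 (2.80-fold), and those of H3K4me3 1013 reads over 16200 bp (9.06-fold) and 39 (2.82-fold).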

How the data were processed

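The lists held peaks of 3 libraries of NE4C cells, 1 per antibody, so the replicate number of each is 1 and groups were not compared by a test. The authors used Bowtie 2 for the alignment (mm9). Their processing notes name MACS 1.4.2 as the peak caller, a legend names SICER, and a control input, not used here, served as a filter. For each peak the authors deposited the length, in whole windows of 200 bp, the read count, not scaled for depth, and a score of the peak caller, which they did not define. Total sequencing depth is unknown. The lists hold 0 columns of samples not analysed here.

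The background per 200 bp was solved from the scores of peaks 1 window wide, taken as minus ln of the Poisson probability of exactly that read count. Genes and sequence came from GENCODE M1 on NCBIM37. Python 3.11.15 with numpy 2.4.6, pandas 2.3.3 and scipy 1.17.1 were used, and the code was tested on simulated data. The members, gene lists and steps were chosen with earlier results of these data known, and the densely covered stretches after seeing these peaks. Genes were named by rule: the 5 with the most peaks per list, starts in peaks of several lists, and members of the gene lists with peaks of at least 2 lists or a start inside a peak; the 3 peaks of largest fold and of largest width per list; and the 2 densest and emptiest steps. A further few genes (the semaphorins without peaks, Mll3, Actb, Alb, Afp, Csn2 and those of the stretches) were named after their values were seen. Some genes that the rule names are not reported here. Alternatives were a stricter score, other definitions of overlap, promoter and step border, merging of near peaks, lists of equal length, the 14 to 16 Mb peaks kept and the stretches left out.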

Additional observations from a re-analysis of the deposited data

How the results depend on the processing

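Of 148 values of 29 results under other settings, 80 moved by less than their counting error and 68 by more, and for none of the moves was the cause tested beyond what the setting itself changes. No paired analysis was possible because each antibody had 1 library, so that a result cannot be given without a replicate either. The input and the total depth were not analysed here, which limits every count, since a peak list shows what passed its threshold and not what lay under it.

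With a stricter score (the lowest score of each list plus the natural log of 100), chromosome 5 held 7.63% of H3K79Hcy, 7.42% of KHcy and 20.9% of H3K4me3 peaks, and the 5 densest steps held 34.9%, 38.3% and 65.5%. Median widths became 1400, 2400 and 2400 bp, H3K4me3 reads per 200 bp 3.91 and the H3K4me3 promoter share 3.09%. Gene starts inside a peak fell to 0%, 0.924% and 7.70%, and genes with a peak in the body to 4.85%, 8.09% and 25.7%. H3K79Hcy overlapped H3K4me3 in 20%, KHcy H3K4me3 in 24.3%, H3K4me3 H3K79Hcy in 1.34% and H3K4me3 KHcy in 2.63%. H3K4me3 made up 93.2% of the H3K4me3 and H3K79Hcy peaks, against 83.6% in the lists as deposited.

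With the peaks of 14 to 16 Mb kept, the shares on chromosome 5 were 10.3% (H3K79Hcy) and 9.71% (KHcy), and H3K79Hcy had 4.40 reads per 200 bp. H3K79Hcy then overlapped KHcy in 15.8% and H3K4me3 in 24.6%, KHcy H3K79Hcy in 16.4% and H3K4me3 in 27.4%, and H3K4me3 the other lists in 4.73% and 5.67%. H3K4me3 made up 82.3% of the H3K4me3 and H3K79Hcy peaks.

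With peaks within 3000 bp merged, 12.9% of H3K4me3 peaks lay on chromosome 5, 41.2% of these in the 5 densest steps, with a median width of 2200 bp and 3.53 reads per 200 bp, 13.1% of gene starts inside one and 5.86% in promoters. They overlapped H3K79Hcy in 4.59% and KHcy in 5.97% and made up 73.7% of the H3K4me3 and H3K79Hcy peaks.

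With the lists cut to equal length by fold, 23.6% of H3K4me3 peaks lay on chromosome 5 (72.1% of the H3K4me3 and H3K79Hcy peaks). H3K79Hcy and KHcy overlapped H3K4me3 in 9.30% and 13.5%, and H3K4me3 KHcy in 5.57%.

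With the stretches left out, a setting chosen after seeing the data, H3K4me3 had 13.4% of its list on chromosome 5, 44.2% of these in the 5 densest steps, a width of 1800 bp, 3.57 reads per 200 bp, 5.46% in promoters and 78.4% of the H3K4me3 and H3K79Hcy peaks. H3K79Hcy and KHcy overlapped it in 12.4% and 16.1%. At a limit of 30% covered, also chosen after seeing the data, there were 7 stretches (1373 H3K4me3 peaks), and at 50% there were 5 (1069 peaks), beside 4 at 40% (1110 peaks).

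An overlap of at least 50% of the peak gave 5.43% for KHcy at H3K79Hcy, 15.5% for KHcy at H3K4me3, and 0.927% and 2.06% for H3K4me3 at H3K79Hcy and KHcy. Peaks within 1000 bp of each other gave 11.2% for H3K79Hcy at KHcy, 19.3% for H3K79Hcy at H3K4me3, 11.3% for KHcy at H3K79Hcy, and 4.11% and 5.18% for H3K4me3 at H3K79Hcy and KHcy, and 26.3% of gene starts within 1000 bp of H3K4me3. Step borders moved by 2.5 Mb left 52.7% of H3K4me3 peaks in the 5 densest steps, a promoter of 1000 bp held 2.08% of them, and 41.8% of genes held one in the body or 2000 bp upstream. Under every setting run that gives both shares, the share of the H3K4me3 list on chromosome 5 stayed above that of H3K79Hcy. The chromosome was chosen for its peak number, so this order was described and not tested.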
